A study of Mus musculus with 8 samples.

Results

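The kidney makes much of the arginine that other organs use, and it takes the first step of creatine synthesis. In proximal tubule cells, argininosuccinate synthase (*Ass1*) joins citrulline from the blood to aspartate, and argininosuccinate lyase (*Asl*) splits the product into arginine and fumarate. Glycine amidinotransferase (*Gatm*) then moves the amidino group of arginine to glycine, which gives guanidinoacetate and ornithine, and guanidinoacetate is methylated to creatine by *Gamt*, mainly in the liver.

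The 9 genes described here are *Ass1*, its near copy *Gm5424*, and *Asl* (synthesis of arginine); *Gatm*, *Gamt*, and the creatine transporter *Slc6a8* (arginine to creatine); and *Oat*, *Ddah1*, and *Agmat* (other fates of arginine and its products). They are 9 of 55367 genes in the count table, and all 9 were among the 20149 genes that passed the filter on low counts. They were chosen by their place in the pathway with the genotype difference in these same counts already known. Their values, and whether the fit over all genes calls them, are therefore a description and no test of these genes, and nothing is inferred from how many of them differed.

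The study asked what the transcription factor c-Maf does in the adult kidney. Total RNA from whole kidneys of 8-week-old C57BL/6J mice was depleted of ribosomal RNA and sequenced in paired 36-base reads. The 4 *c-Maf* ΔTAM mice carried floxed *c-Maf* and *CAG-Cre-ER* TM, a Cre recombinase that tamoxifen (TAM) activates and that the CAG promoter drives in most tissues, so that the deletion was not limited to the kidney. These are called knockout mice 1 to 4. Control mice 1 to 4, *c-Maf fl/fl*, carried the same floxed alleles without Cre, and the methods describe TAM for both groups. Each mouse was 1 replicate, and *P* values measure the spread between these mice only.

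Totals were 22990257, 18896014, 17188052, and 16649129 counts in knockout mice 1 to 4 and 18696580, 20890209, 20371115, and 19897769 in control mice 1 to 4. Levels are CPM, counts scaled to a common library size after TMM scaling. Each log2 fold change sets knockouts against controls, so a negative value is a lower level without *c-Maf*. The extraction label speaks of liver while the source label says whole kidney, so the tissue was checked. The kidney genes *Umod* and *Lrp2* lay at 1648 to 3196 CPM and 4466 to 8602 CPM. The liver genes *Otc* and *Cps1* had 0 counts and 0 to 2 counts. *Alb* had 13 to 50 counts in knockouts and 53 to 196 in controls. Its log2 fold change was -2.04, not past an adjusted *P* of 0.05 by edgeR's quasi-likelihood test. *Apob*, also on the list of hepatocyte markers, lay at 434.5 to 709.7 CPM.

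Several libraries stood apart. *Xist*, the RNA made from the inactive X chromosome of female cells, had 2 counts in knockout mouse 1 and 6 and 22 counts in control mice 3 and 4, against 17618 to 22387 in the other 5 mice. The sexes of the mice are not given in the labels. Mitochondrial genes took 32.3% of the counts in knockout mouse 1 and 25.5% in control mouse 4, against 17.1% to 22.1% in the other mice. Fat cell genes were found mainly in control mouse 3, with 461 counts of *Ucp1* and 172 of *Adipoq*, and in knockout mouse 4, with 80 and 38.

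*Maf* itself had 178, 671, 533, and 187 counts in knockout mice 1 to 4 and 7746, 7580, 6018, and 5988 counts in control mice 1 to 4. All 4 *c-Maf* ΔTAM mice were far below all controls, and mice 1 and 4 kept the least. As a percentage of the control mean, the remaining *Maf* level was 2.63, 10, 8.58, and 2.94. The log2 fold change was -4.05 (SE 0.512, adjusted *P* = 0.0115 by edgeR's quasi-likelihood test). *Maf* was not past an adjusted *P* of 0.05 with the replicate number as a block (-4.28, adjusted *P* = 0.0516) or in the 5 mice with high *Xist* (-3.87, adjusted *P* = 0.108).

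Of the 20149 genes tested, 436 (2.16%) passed an adjusted *P* of 0.05, of which 318 (1.58%) were lower and 118 (0.586%) higher in *c-Maf* ΔTAM mice. Of the 9 arginine and creatine genes, 4 were past that threshold, *Ass1*, *Gm5424*, *Asl*, and *Gatm*, all lower. The genotypes did not overlap in 5 of the 9, those 4 and *Slc6a8*, all lower. Over all genes tested, the share without overlap was 5.62% lower and 4.17% higher. The median log2 fold change was -0.29 over the 9 genes and 0.00 over all genes tested. In whole kidney, fewer cells of a type and less RNA per cell cannot be told apart.

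**Figure D1:**
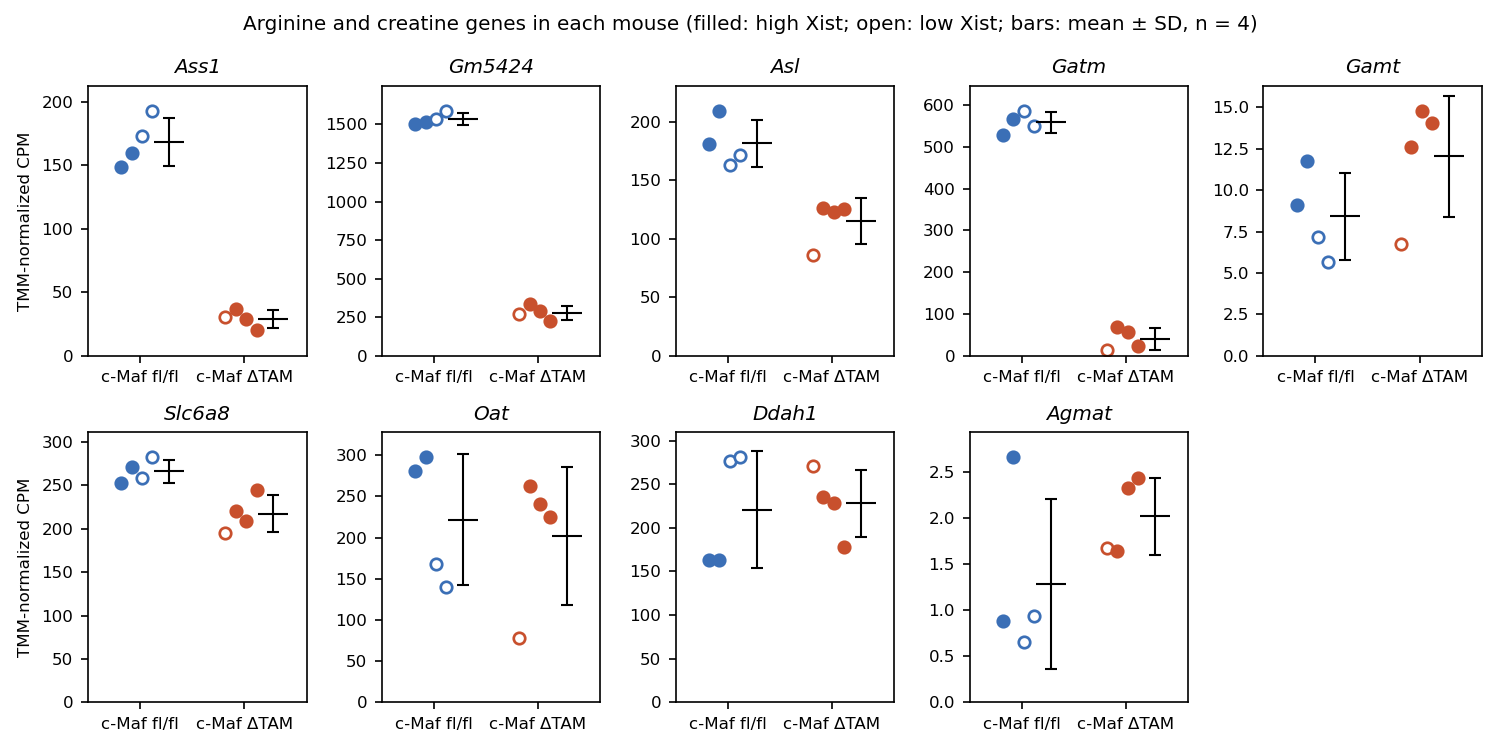
TMM-normalized CPM of the 9 genes in each mouse (blue, *c-Maf fl/fl*; red, *c-Maf* ΔTAM; filled, high *Xist*; open, low *Xist*), with the mean and SD of 4 mice beside the points and each axis starting at 0. *Ass1*, *Gm5424*, *Asl*, *Gatm*, and *Slc6a8* do not overlap between genotypes, and *Oat*, *Gamt*, and *Ddah1* separate by *Xist*.

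*Ass1* (chr2:31470207-31520672, plus strand, GRCm38) read 30.4, 36.9, 28.8, and 20.03 CPM in knockout mice 1 to 4 and 149, 159, 173, and 193 CPM in control mice 1 to 4. Each knockout was below each control, with mouse 2 the highest and mouse 4 the lowest of them. Means were 29.0 ± 6.96 and 169 ± 19.1 CPM (SD, n = 4), and the log2 fold change was -2.54 (SE 0.169). Among controls, the 2 mice with low *Xist* had the highest *Ass1* levels.

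*Gm5424* (chr10:62071123-62072362, plus strand), annotated as a processed pseudogene of a single exon, collected far more reads than *Ass1*. It had 5340, 6495, 5250, and 4164 counts in knockout mice 1 to 4 and 30654, 33507, 30250, and 27112 counts in control mice 1 to 4. By CPM, knockout mouse 2 was again the highest and mouse 4 the lowest of the knockouts, while mice 1 and 3 changed places, and the genotypes were again well apart. Its means were 280 ± 44.9 and 1535 ± 38.7 CPM (SD, n = 4), and its log2 fold change was -2.45 (SE 0.121). The ratio of *Gm5424* to *Ass1* counts was 8.94 to 11.3 in knockouts and 8.23 to 10.1 in controls, so it overlapped between genotypes.

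The 2 loci share most of their sequence. All 1240 bases of *Gm5424* align to bases 203 to 1442 of the 1696-base *Ass1* mRNA of 16 exons, which hold its whole coding sequence (bases 203 to 1441), and 1234 of them (99.5%) are identical. The 6 differences, counted from base 1 at the 5′ end of the *Ass1* mRNA with the *Ass1* base first, are T601C, T631C, A722T, G858C, T1213C, and C1345T. At the read length of 36 bases, 995 of the 1205 stretches of *Gm5424* (82.6%) and 995 of the 1661 stretches of the *Ass1* mRNA (59.9%) occur in both. No other gene's transcripts held any of these stretches. Of the 521 stretches that cross an *Ass1* exon junction, 382 are also in *Gm5424*, where they lie in 1 exon. A read from these stretches cannot be assigned to 1 of the loci by its sequence alone, so the levels of both are uncertain, and how the reads were divided was not tested. The stretch below shows how alike the loci are: it holds 2 of the 6 differences, in capitals, and covers bases 571 to 660 of the *Ass1* mRNA and bases 369 to 458 of *Gm5424* (GENCODE transcripts, GRCm38).
Ass1 mRNA: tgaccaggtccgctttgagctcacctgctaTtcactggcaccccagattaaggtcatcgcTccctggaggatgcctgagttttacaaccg
Gm5424: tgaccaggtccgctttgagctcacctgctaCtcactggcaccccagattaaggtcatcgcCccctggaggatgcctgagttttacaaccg

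**Figure D2:**
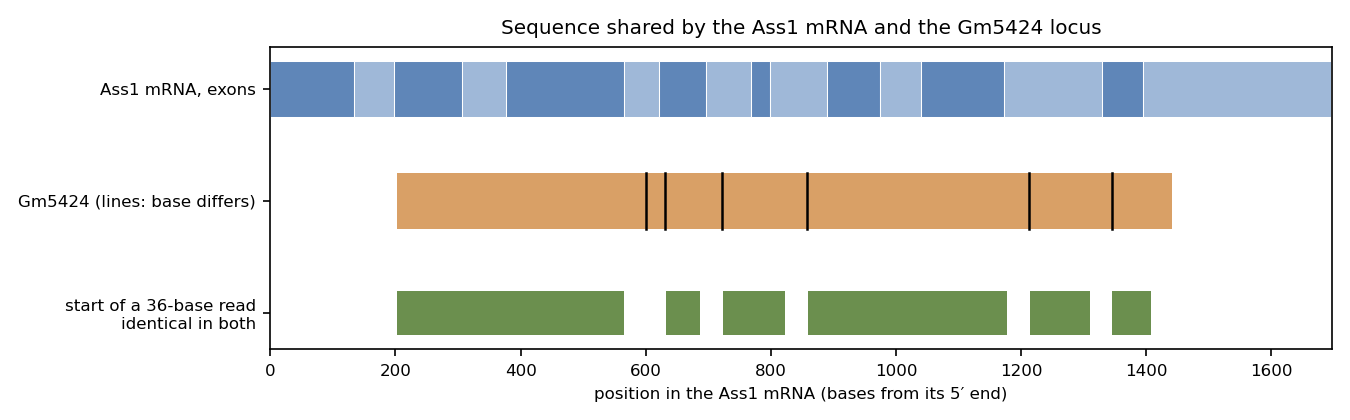
Map of the 1696-base *Ass1* mRNA with its 16 exons (top), the aligned *Gm5424* sequence with its 6 differing bases as lines (middle), and the positions where a 36-base stretch identical in both begins (bottom); the horizontal axis counts bases from the 5′ end of the mRNA. *Gm5424* spans bases 203 to 1442, and the shared stretches break off only around the differences.

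Summed over both loci, counts were 5937, 7214, 5770, and 4534 in knockout mice 1 to 4 and 33691, 37038, 33655, and 30406 in control mice 1 to 4. The sum does not depend on how the counted reads were divided between the 2 loci, and it kept the genotypes apart. Reads left out because they align to both loci would make the sum too low, and how many there were is not known here. Its log2 fold change was -2.46. Per kb of the *Ass1* mRNA, the summed level of counted reads was 1005 ± 33.9 CPM in controls and 183 ± 30.4 CPM in *c-Maf* ΔTAM mice (SD, n = 4).

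*Asl* (chr5:130011258-130029247, minus strand), the next enzyme, read 85.9, 126, 123, and 126 CPM in knockout mice 1 to 4 and 181, 210, 163, and 172 CPM in control mice 1 to 4. The genotypes did not overlap, and knockout mouse 1 was well below the other 3 of its group. Means were 115 ± 19.6 and 182 ± 20.2 CPM (SD, n = 4), a log2 fold change of -0.66 (SE 0.130), and -0.54 without knockout mouse 1. In fits that left out 1 mouse, *Asl* was no longer past the threshold without knockout mouse 2 (-0.70), knockout mouse 3 (-0.69), control mouse 1 (-0.66), or control mouse 2 (-0.58). It was also not past it with quantile normalization and limma-trend together (-0.58) or with the replicate number as a block (-0.67). *Asl* was past it with the *Xist* level as a covariate (-0.74) and among the 5 mice with high *Xist* (-0.65).

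*Gatm* (chr2:122594467-122611303, minus strand), the enzyme of guanidinoacetate synthesis, had the largest log2 fold change of the 9 genes in size. It read 14.1, 68.0, 57.1, and 23.0 CPM in knockout mice 1 to 4 and 529, 567, 587, and 551 CPM in control mice 1 to 4. Controls lay close together, with a coefficient of variation of 4.41%, while knockout mice 1 and 4 were well below mice 2 and 3, and the coefficient was 64.3%. Means were 40.6 ± 26.1 and 558 ± 24.6 CPM (SD, n = 4), and the log2 fold change was -3.78 (SE 0.537). As a percentage of the control mean, *Gatm* was at 2.52, 12.2, 10.2, and 4.11 in knockout mice 1 to 4. This is the order of the mice by remaining *Maf*, whereas *Ass1*, at 18, 21.9, 17.1, and 11.9, had another order. With 4 mice, this is a description.

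Over all fits, the log2 fold change of *Gatm* ranged from -4.15 to -3.47, but its call changed. Without knockout mouse 1 it was -3.50, and *Gatm* stayed past the threshold. It was not past it without knockout mouse 4 (-3.59) or without control mouse 1 (-3.81), mouse 2 (-3.78), mouse 3 (-3.76), or mouse 4 (-3.79), nor among the 5 mice with high *Xist* (-3.47).

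*Gamt* (chr10:80258151-80261012, minus strand), the methyltransferase that completes creatine, was a low-level gene in these kidneys. It read 6.77, 12.6, 14.8, and 14.1 CPM in knockout mice 1 to 4 and 9.12, 11.7, 7.16, and 5.69 CPM in control mice 1 to 4. The groups overlapped, and within each genotype the mice with low *Xist* were the lowest. The log2 fold change was 0.51 (SE 0.273), 0.71 without knockout mouse 1, and 0.40 (SE 0.159) among the 5 mice with high *Xist*, where each knockout was above each control. *Gamt* was not past the threshold in any fit.

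*Slc6a8* (chrX:73673150-73682502, plus strand), which carries creatine into cells, read 195, 220, 209, and 245 CPM in knockout mice 1 to 4 and 253, 271, 258, and 282 CPM in control mice 1 to 4. Each knockout lay below each control by a small margin. The means were 217 ± 21.1 and 266 ± 13.2 CPM (SD, n = 4), and the log2 fold change was -0.29 (SE 0.0917). *Slc6a8* was not past the threshold, except with the *Xist* level as a covariate (-0.31).

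The other 3 genes overlapped between genotypes, and in 2 of them the mice with low *Xist* lay apart from the mice with high *Xist*. *Oat* (chr7:132557478-132576398, minus strand), ornithine aminotransferase, read 78.3, 262, 241, and 225 CPM in knockout mice 1 to 4 and 281, 298, 168, and 140 CPM in control mice 1 to 4. The 3 mice with low *Xist* were the 3 lowest of all 8, with overlap between the genotypes. The log2 fold change was -0.14 (SE 0.427), 0.13 without knockout mouse 1, and -0.44 (SE 0.123) with *Xist* as a covariate, where it was not past the threshold either.

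*Ddah1* (chr3:145758675-145894277, plus strand) degrades methylated arginines that inhibit nitric oxide synthases. It read 271, 235, 228, and 178 CPM in knockout mice 1 to 4 and 163, 163, 276, and 281 CPM in control mice 1 to 4. Here the 3 mice with low *Xist* were above the other 5. The log2 fold change was 0.05 (SE 0.213), and -0.05 without knockout mouse 1. It was 0.19 (SE 0.117) with *Xist* as a covariate and 0.39 (SE 0.109) among the 5 mice with high *Xist*. The ratio of the *c-Maf* ΔTAM mean to the control mean was 1.31 among mice with high *Xist*. Among the 3 mice with low *Xist*, of which only 1 is *c-Maf* ΔTAM, it was 0.971.

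*Agmat* (chr4:141746672-141759263, plus strand), named for agmatine hydrolysis, was near the limit of detection, with 32 to 45 counts in knockouts and 13 to 59 in controls. Among controls, mouse 2 stood alone at 59 counts, while the other 3 had 13 to 18, below every knockout. The log2 fold change was 0.63 (SE 0.405), 1.28 without control mouse 2, and 0.25 among the 5 mice with high *Xist*.

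Within mice of like *Xist* level, the 4 genes past the threshold kept their direction. Among the 5 mice with high *Xist*, the ratio of the *c-Maf* ΔTAM mean to the control mean was 0.186 for *Ass1*, 0.188 for *Gm5424*, 0.639 for *Asl*, and 0.0901 for *Gatm*. Among the 3 with low *Xist*, of which only 1 is *c-Maf* ΔTAM, it was 0.166, 0.174, 0.513, and 0.0248. The proximal tubule genes *Slc7a13* and *Cyp7b1* split the mice in the same way as *Xist*: *Slc7a13* read 204, 264, and 324 CPM in the 3 mice with low *Xist* and at most 1.08 CPM in the others. Both are on the list of S3 segment markers, whose other genes differed in this. *Atp11a* split the mice too, at 1684 to 3465 CPM with low *Xist* against 592 to 948 CPM. *Slc22a19* (139.9 to 240.8 against 99.57 to 192.7 CPM) and *Slc7a12* (40.75 to 235.8 against 165 to 313.7 CPM) overlapped.

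Levels of different genes were compared per kb of exonic length. In control kidneys the order was *Gm5424* (1238 ± 31.2 CPM per kb), *Gatm* (186 ± 8.21), *Oat* (93.9 ± 33.6), *Ass1* (69.8 ± 7.90), *Ddah1* (55.5 ± 16.7), *Slc6a8* (51.1 ± 2.54), *Asl* (37.6 ± 4.18), *Gamt* (5.84 ± 1.81), and *Agmat* (0.914 ± 0.658; SD, n = 4). The ranges of the 4 mice overlapped for *Oat* with *Ass1* and *Ddah1*, for *Ass1* with *Ddah1*, and for *Ddah1* with *Slc6a8* and *Asl*. In *c-Maf* ΔTAM kidneys *Gm5424* still ranked 1 (226 ± 36.2 CPM per kb). *Gatm* went from rank 2 to rank 6 (13.5 ± 8.69) and *Ass1* from rank 4 to rank 7 (12.03 ± 2.88), while *Oat* (85.4 ± 35.4), *Ddah1* (57.2 ± 9.60), *Slc6a8* (41.7 ± 4.04), and *Asl* (23.8 ± 4.05) stood at ranks 2 to 5. In these kidneys the ranges overlapped for *Oat* with *Ddah1* and *Slc6a8*, for *Ddah1* with *Slc6a8*, for *Gatm* with *Asl*, *Ass1*, and *Gamt*, and for *Ass1* with *Gamt*. In knockout mice 1 and 4, *Ass1* lay above *Gatm*. The ranks of *Ass1* and *Gm5424* rest on how reads were divided between them.

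Of 62 other genes listed for the pathway and its surroundings, 54 were tested, and 5 fell and 1 rose in *c-Maf* ΔTAM mice by edgeR's quasi-likelihood test, with adjustment over all genes tested. Over all genes tested, 1.58% were lower and 0.586% higher, and the lists were chosen with earlier results of these data known. Their median log2 fold change was -0.11, against 0.00 over all genes tested. Transport of arginine and other cationic amino acids held 4 of the 6 among its 8 tested genes (median -0.55). *Slc7a7*, the light chain of the transporter that exports cationic amino acids toward the blood, fell from 147 ± 13.3 to 63.8 ± 7.75 CPM (log2 fold change -1.20, SE 0.104, adjusted *P* = 9.35e-05). Its heavy chain *Slc3a2* fell too (log2 fold change -1.26, SE 0.129, adjusted *P* = 0.000263). *Slc7a2*, a cationic amino acid transporter (-1.55, SE 0.186, adjusted *P* = 0.000842), and *Slc7a9*, which takes up cystine and cationic amino acids from the tubule fluid (-0.84, SE 0.114, adjusted *P* = 0.00200), were lower as well. In all 4 of these genes each knockout was below each control. The partner of *Slc7a9*, *Slc3a1*, did not pass (-0.03, SE 0.0898), and it was named after its value was seen. *Slc3a1* shares 26.5% of its exonic bases with *Prepl*, and *Slc7a7* shares 7% with *Oxa1l*. Reads on shared bases were not counted.

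Of the genes for creatine kinases and creatine efflux, 3 of 5 were tested. *Slc16a12*, a creatine transporter, fell from 151 ± 21.3 to 75.7 ± 5.57 CPM (log2 fold change -1, SE 0.107, adjusted *P* = 0.000318), with no overlap between genotypes. Among 11 tested genes of glycine and methyl supply, *Mat2a*, which makes the methyl donor *S*-adenosylmethionine, rose from 163 ± 18.9 to 262 ± 20.3 CPM (log2 fold change 0.68, SE 0.103, adjusted *P* = 0.00461), also with no overlap. *Mat2a* shares 11.3% of its exonic bases with *Particl*. Its call was lost with replicate numbers as a block, where the log2 fold change was 0.68 (SE 0.132). None of the 4 tested urea cycle genes and carriers (median 0.09), 6 of nitric oxide and methylarginines (-0.29), 10 of ornithine, proline, and glutamate (-0.06), or 12 of polyamines (-0.05) passed by edgeR, while 0, 1, 3, and 3 of them had an unadjusted *P* under 0.05, as did 2825 (14%) of all genes tested. *Cps1*, *Otc*, *Nags*, *Slc25a2*, *Slc7a3*, *Ckm*, *Ckmt2*, and *Mat1a* were too low to test.

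**Figure D3:**
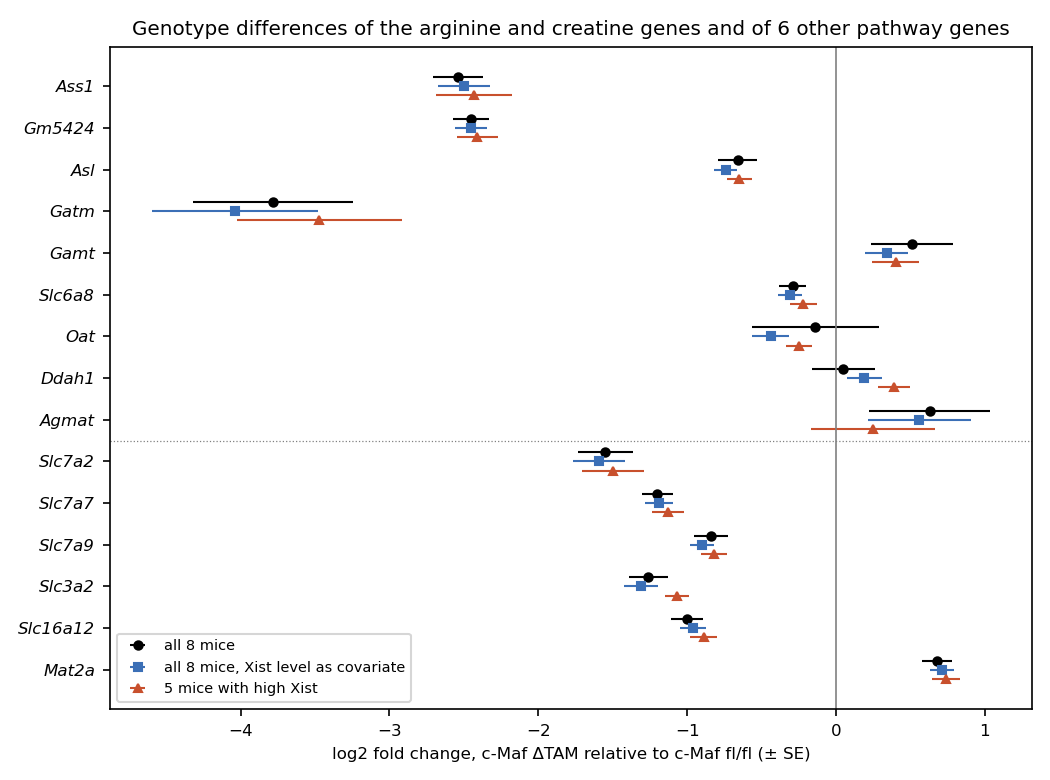
Log2 fold change, knockouts against controls, with SE bars, for the 9 genes (above the dotted line) and the 6 other pathway genes past the threshold (below it), in all 8 mice, in all 8 mice with the *Xist* level as a covariate, and in the 5 mice with high *Xist*. *Gatm* (-3.78), *Ass1* (-2.54), and *Gm5424* (-2.45) lie farthest from 0, and *Gatm*, *Agmat*, *Ddah1*, and *Oat* shift between these fits.

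Of 8 marker genes of proximal tubule segments S1 and S2, 4 fell, *Slc5a2* (-3.71, SE 0.461), *Slc5a12* (-1.71, SE 0.173), *Slc34a1* (-1.23, SE 0.123), and *Slc4a4* (-0.99, SE 0.0890), all as log2 fold changes, and the other 4 did not pass, where 1.58% of all genes tested were called lower. The median of all 8 was -1.03, and the 8 genes summed to 8906, 12640, 12210, and 11270 CPM in knockout mice 1 to 4 and 15060, 17100, 16180, and 16250 CPM in control mice 1 to 4. The most abundant, *Lrp2*, was at -0.17 (SE 0.164), and all 8 had counts in every mouse. The part of these markers in the lower levels of *Ass1*, *Asl*, and *Gatm* was not tested.

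Among markers of S3 (most abundant gene *Atp11a*), thick ascending limb (*Umod*), distal convoluted tubule (*Slc12a3*), collecting duct (*Aqp2*), podocytes (*Podxl*), macrophages (*Csf1r*), lymphocytes (*Cd3e*), fibroblasts (*Col3a1*), hepatocytes (*Apob*), and tubular injury (*Spp1*), 0 genes passed by edgeR. Of the 5, 5, 3, 5, 5, 6, 1, 5, 5, and 5 genes tested in these lists, 1, 0, 1, 0, 0, 2, 0, 0, 3, and 1 had an unadjusted *P* under 0.05, as did 14% of all genes tested. Of the 5 hepatocyte markers tested, 3 had a log2 fold change below 0 and 2 above. Among them, only *Alb* (-2.04, SE 0.498) had each knockout below each control. Of 6 endothelial markers (most abundant gene *Flt1*), only 1 passed by edgeR, where 1.58% of all genes tested were called lower. This was *Kdr*, which fell (-0.37, SE 0.0851, adjusted *P* = 0.0450 by edgeR's quasi-likelihood test). None of the 4 fat cell markers passed the filter on low counts.

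Promoters of 6 of the 9 genes, *Ass1*, *Gatm*, *Gamt*, *Oat*, *Ddah1*, and *Agmat*, were found in the RefSeq table of GRCm38.p6. These windows run from 250 bases before to 50 bases after the gene's start. Windows of *Agmat* began at bases 141746425 and 141746527 of chromosome 4, and the 6 were counted by gene. On either strand, 0 of the 6 held TGCTGAC, a part of the element that Maf proteins bind, against 4.67% of all 32851 promoters in that table. The core TGAGTCA was also in 0 of the 6, against 5.2% of all promoters. For the core TGACGTCA the values were 0 of the 6 and 1.79%. Sequence outside these windows was not searched. At shares this low, 0 of the 6 cannot show that these genes lack such sites.

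Over the 8 mice, the genes whose log2 CPM was most like each gene, by Pearson's r among genes with a mean of at least 10 CPM, were *Fam151a* (0.999) and *Gpx3* (0.996) for *Ass1*, and *Fam151a* (0.997) and *Ppp1r16b* (0.996) for *Gm5424*. For *Gatm* they were *Car14* (0.999) and *Maf* (0.996), and for *Asl* they were *Slc7a8* (0.982) and *Slc13a3* (0.981). For *Oat* they were *Tspan14* (0.994) and *Mrpl23-ps1* (0.99), and for *Ddah1* *Gm12988* (0.994) and *Vdr* (0.981). For *Gamt* they were *Sik1* (0.982) and *C8a* (0.973), for *Slc6a8* *Dmwd* (0.982) and *Srp14* (0.972), and for *Agmat* *Zfp451* (0.954) and *Ppcdc* (0.945). The mice form 2 groups by genotype, so these values describe the likeness of profiles over both groups.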

How the data were processed

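RNA-Seq counts of whole kidneys from 4 *c-Maf* ΔTAM and 4 *c-Maf fl/fl* mice were used. The deposited values are raw read counts for each gene, which the authors made with featureCounts (2.0.1 in the file header) on exons of the Ensembl release 102 annotation of GRCm38, without normalization. Reads of a pair were counted separately and without strand, so reads of antisense genes cannot be told apart, and reads on exons of more than 1 gene were not counted. The submitters' processing notes list Subread 2.0.2 and edgeR 3.36.0. By the counter's default, reads marked as aligned to several places were not counted. The study's methods describe mapping to mm10 in CLC Genomics Workbench, but the aligner behind the deposited counts is not given in the sources used here. Every per-sample column was used (0 unused).

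Genes were filtered with filterByExpr, scaled by TMM, and compared with edgeR 4.0.16 (quasi-likelihood, robust, no covariate) in R 4.3.3, with Benjamini-Hochberg adjustment over 20149 genes and a threshold of 0.05. SEs came from the size of the log2 fold change over the square root of F, and log2 CPM used a prior count of 2. The fit was tested on simulated data. All pairs of mice of a genotype differed by more than sampling noise. Alternatives used limma 3.58.1 and DESeq2 1.42.0. The alternative with the 5 mice of high *Xist* was chosen after seeing the data. Shared 36-base stretches came from GENCODE transcripts, searched with Python 3.11.15 and Biopython 1.88, and figures were drawn with matplotlib 3.10.9.

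The 9 genes, 7 pathway lists, and 13 marker lists were chosen with earlier results of these data known, and 1 further gene of the set is not reported here. Most genes were named by a rule: *Maf*, the 9 genes, pathway genes past the threshold, the most abundant gene and those past the threshold in each marker list, the 2 genes most like each of the 9, genes that share exons or sequence with them, and *Xist*, *Umod*, and mitochondrial genes as checks. *Slc7a13*, *Cyp7b1*, *Slc22a19*, *Slc7a12*, *Ucp1*, *Adipoq*, *Plin1*, *Cidec*, *Alb*, *Otc*, *Cps1*, *Slc3a1*, and *Gldc* were named outside this rule, after their values were seen.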

Additional observations from a re-analysis of the deposited data

Results flagged for a closer look

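Of 32 groups of 4 mice examined, 3 had 1 mouse far from the other 3 relative to the group's range, where chance gives about 1 in 20 groups, or 1.6. Knockout mouse 1 was low for 2 genes. *Asl* was at 85.9 CPM there, against 123 to 126 in the other 3. *Slc3a2* was at 60.9 CPM, against 88.6 to 93.3. This mouse also had the lowest *Xist* and the highest mitochondrial share of its group. In controls, *Agmat* was at 2.66 CPM in mouse 2, against 0.660 to 0.938 in the other 3.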

How the results depend on the processing

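*Maf*, *Ass1*, *Gm5424*, and the sum of the last 2 kept their direction in all fits. *Maf* lost its call with a replicate block (-4.28, adjusted *P* = 0.0516) and in the 5 mice with high *Xist* (-3.87, adjusted *P* = 0.108). The sum ranged from -2.56 to -2.37 with 1 mouse left out. The total of 436 calls (318 lower, 118 higher) became 846 with DESeq2, run on all 55367 genes with its own filter (562 lower, 284 higher), and 1374 with *Xist* as a covariate (853 and 521). It became 789 in the 5 mice with high *Xist* (322 higher), a fit chosen after seeing the data. Higher calls were 218 with edgeR's exact test on genes of at least 5 counts in total and 191 with the main test on genes of at least 1 count in any mouse. With 1 mouse left out, calls ranged from 239 to 452, lower calls from 188 to 310, and higher calls from 51 to 142. The genes called among the 9 went from 4 to between 2 and 4 with 1 mouse left out, and to 3 with *Ass1* and *Gm5424* as 1 gene. Pathway calls went from 6 to 10 with DESeq2, 14 with *Xist* as a covariate, and 12 in the 5 mice with high *Xist*. The cause was not tested.

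With the replicate number as a replicate block, 129 genes were called (111 lower, 18 higher), and *Maf*, *Asl*, and *Mat2a* lost their calls. Mice with the same number did not deviate together (r of -0.37, 0.15, -0.11, and -0.33). The deviations of knockout mouse 1 went with *Xist*. Its r was -0.37 and -0.39 with control mice 1 and 2, and 0.33 and 0.38 with control mice 3 and 4. With 4 mice in each group, these values cannot show whether the numbers pair the mice. *Oat* changed sign without knockout mouse 1 (0.13) or control mouse 2 (0.04), and *Ddah1* without knockout mouse 1 (-0.05), control mouse 1 (-0.08), or mouse 2 (-0.07). With 1 mouse left out, they ranged from -0.30 to 0.13 (*Oat*) and -0.08 to 0.19 (*Ddah1*). Neither passed the threshold in any fit.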

Other observations

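The fat cell genes *Plin1* and *Cidec* had 248 and 317 counts in control mouse 3 and 50 and 33 in knockout mouse 4, against at most 10 in the other mice. *Gldc*, of the glycine cleavage system, read 18.2 CPM in knockout mouse 1, against 137 to 169 CPM in the other 3 of its group and 172 to 240 CPM in controls. It was named after its values were seen.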
